A study of Mus musculus with 12 samples.

Results

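Acute-phase proteins are plasma proteins whose synthesis changes with inflammation or injury. The 10 genes described here are Saa1, Saa2 and Saa3 (serum amyloid A), Orm1 and Orm2 (orosomucoid), Hp (haptoglobin), Hpx (hemopexin), Lcn2 (lipocalin 2), Apcs (serum amyloid P) and Hamp (hepcidin). They were taken by gene symbol from the 55414 genes of the count table, and each symbol matched 1 Ensembl identifier. RNA-seq was performed on the inferior vena cava (IVC) of 12 wild-type C57BL/6J mice, 10 weeks old, on day 7 after surgery. In 6 mice an arteriovenous fistula (AVF) was made below the renal vessels by passing a needle through the aorta into the IVC, and 6 sham-operated mice had the same surgery, clamping included, without the puncture. Each group had 3 male and 3 female mice, and each mouse gave 1 library. By their expression, the study set AVF samples #05 (male) and #09 (female) apart as outliers (OUT) and called samples #04, #06, #07 and #11 normal AVF (nAVF). This split is not in the sample labels and was made from the same RNA, so values of #05 and #09 are given one by one, and OUT and nAVF were not tested against each other as groups.

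Most acute-phase proteins in plasma are made by hepatocytes, where IL-6 acts through STAT3, and IL-1 and TNF act through NF-kB and C/EBP factors. Some are also made outside the liver: Saa3 by macrophages, adipocytes and other cells, Hp and Orm1 by adipocytes, and Lcn2 by neutrophils, macrophages and epithelia. In mice Saa1 and Saa2 are the main serum amyloid A proteins of plasma, carried on high-density lipoprotein, whereas Saa3 acts mainly where it is made. Haptoglobin binds free hemoglobin and hemopexin binds free heme, so both are also part of the defence against hemolysis.

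Total counts ranged from 15177881 to 22717423 per library. In #07, 46% of the counts were from ribosomal RNA genes, against 2.39% to 12.6% in the others. Levels are normalized CPM (counts scaled to a common library size with TMM), and 3 counts in a library, taken as the least detected, were 0.127 to 0.324 normalized CPM. The labelled tissue carried its vessel markers in every sample: summed levels of 6 smooth muscle markers were 2305 to 4904 and of 6 endothelial markers 1628 to 2766 normalized CPM. The lowest smooth muscle sum was that of #09, against 4091 in #05, 2632 to 4838 in sham and 3227 to 4904 in the other AVF samples. Of 20 hepatocyte markers, 17 had over 90% of their summed level in #05 and #09, and Alb, the albumin gene of hepatocytes, stood at 1853 normalized CPM in #05, 5594 in #09 and 0.127 to 2.67 in the other 10 samples. The sum of the 20 hepatocyte markers was 556 to 2733 outside #05 and #09, most of it from Cyp2e1 (528 to 2703), 5091 in #05 and 11891 in #09. Sums were 1.24 to 2.88 for 6 pancreatic acinar markers, 0 to 0.146 for 5 kidney tubule markers, 45.9 to 124 for 8 mesothelial markers and 3735 to 19641 for 6 erythroid markers. Bulk RNA cannot tell fewer cells of a type from less RNA per cell.

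The genes lay on 5 chromosomes (positions on GRCm39). The Saa genes sit together, Saa3 at chr7:46361422-46365576 and Saa1 at chr7:46389916-46392547 on the minus strand and Saa2 at chr7:46401214-46403737 on the plus strand. Orm1 (chr4:63261052-63272189) and Orm2 (chr4:63280686-63284115) are neighbours with Orm3 between them. Hp lies at chr8:110301759-110305804, Hpx at chr7:105240817-105249344, Lcn2 at chr2:32274645-32278264, Apcs at chr1:172721528-172722611 and Hamp at chr7:30641766-30643990. Over the aligned bases, the transcripts of Saa1 and Saa2 were 94.8% identical, Orm1 and Orm2 91%, and Hamp and its copy Hamp2 93.9%. The authors' counting shares reads between such copies: the deposited values were not whole in 11 of 12 samples for Orm1 and in 10 for Orm2, against 2 each for Saa1 and Saa2, 3 for Hamp and 0 for Hp, Hpx, Lcn2 and Apcs. Levels of these paralogs are therefore uncertain relative to each other.

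The 200 bases before the start of the main transcript of each gene were read from GRCm39 (GENCODE M39) and searched on both strands for 4 motifs: C/EBP (TTGCNNAA), STAT3 (TTCNNNGAA), NF-kB and the hepatocyte factor HNF1. Of 21627 windows of protein-coding genes, 7.25% held the first, 6.16% the second, 3.5% the third and 0.328% the fourth. The C/EBP motif was found once each in Saa1, Saa2, Orm1, Orm2, Hpx and Lcn2, the STAT3 motif once in Hamp, and none of the 4 in Saa3, Hp and Apcs, and no window held more than 1 kind. The first base of the C/EBP match lay 39 bases before the start in Saa1 and 140 bases before it in Saa2, in a stretch that the copies share with 91 of 99 aligned bases identical. The windows of Orm1, Lcn2 and Hamp overlapped annotated exons of the same genes, unlike the windows of the other genes. Their matches are therefore not in windows free of exons. A match is a run of letters, not a shown binding site. Windows that overlap no exon are printed for Saa1, Saa2, Orm2 and Hpx, whose levels were highest in #05 and #09, and for Saa3 and Hp, whose levels were also higher in the other AVF samples. Apcs, also highest in #05 and #09, had a window without exon overlap too. That window held none of the 4 motifs and is not printed, so the printed windows do not stand for all genes of either kind. Capitals mark the C/EBP motif.
Saa1, chr7:46392548-46392747, minus strand: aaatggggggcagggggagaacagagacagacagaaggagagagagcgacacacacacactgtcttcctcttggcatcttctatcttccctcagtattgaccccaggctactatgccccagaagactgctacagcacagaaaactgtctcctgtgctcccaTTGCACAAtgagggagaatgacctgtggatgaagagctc
Saa2, chr7:46401014-46401213, plus strand: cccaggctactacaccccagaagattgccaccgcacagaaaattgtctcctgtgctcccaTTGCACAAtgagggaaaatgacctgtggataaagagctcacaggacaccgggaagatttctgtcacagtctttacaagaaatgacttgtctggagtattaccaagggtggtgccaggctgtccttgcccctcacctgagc
Orm2, chr4:63280486-63280685, plus strand: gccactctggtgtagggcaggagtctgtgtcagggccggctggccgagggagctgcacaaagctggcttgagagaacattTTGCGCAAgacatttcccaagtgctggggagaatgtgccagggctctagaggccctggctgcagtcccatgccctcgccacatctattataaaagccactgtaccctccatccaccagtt
Hpx, chr7:105249345-105249544, minus strand: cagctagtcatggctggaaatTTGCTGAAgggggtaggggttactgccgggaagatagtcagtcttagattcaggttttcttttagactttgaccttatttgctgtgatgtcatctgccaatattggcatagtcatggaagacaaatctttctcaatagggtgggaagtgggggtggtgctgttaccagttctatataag
Saa3, chr7:46365577-46365776, minus strand: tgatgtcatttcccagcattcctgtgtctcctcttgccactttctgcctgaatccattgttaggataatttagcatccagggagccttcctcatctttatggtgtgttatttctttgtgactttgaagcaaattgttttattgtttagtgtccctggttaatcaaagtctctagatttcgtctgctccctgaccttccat
Hp, chr8:110305805-110306004, minus strand: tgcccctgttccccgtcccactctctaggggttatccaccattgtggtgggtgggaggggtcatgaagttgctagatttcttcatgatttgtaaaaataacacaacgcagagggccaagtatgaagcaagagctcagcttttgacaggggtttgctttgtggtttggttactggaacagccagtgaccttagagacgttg

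The question of the study was how the vein changes in the fistula environment, and AVF against sham is its main comparison. All 10 genes passed the filter, which asked for over 1 CPM in 2 or more samples, but 6 of them (Saa1, Saa2, Orm2, Hpx, Apcs and Hamp) passed only through #05 and #09 and thus had to differ. By edgeR's quasi-likelihood test, 6 of 10 were DEG, counted at a change of 2-fold or more with adjusted p below 0.05. All 6 were higher in AVF (Saa1, Saa2, Saa3, Hp, Hpx and Hamp), and 0 were lower. Of all 15912 genes tested, 4.77% were DEG, 3.37% higher and 1.4% lower. Without #05 and #09, 4 of the 10 genes could be tested and 2 of them, Saa3 and Hp, were DEG, where 3.03% of 15531 genes were DEG and 2.32% were higher. AVF and sham samples overlapped in all 10 genes, and they did not overlap in 6.06% of the genes tested.

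**Figure D1:**
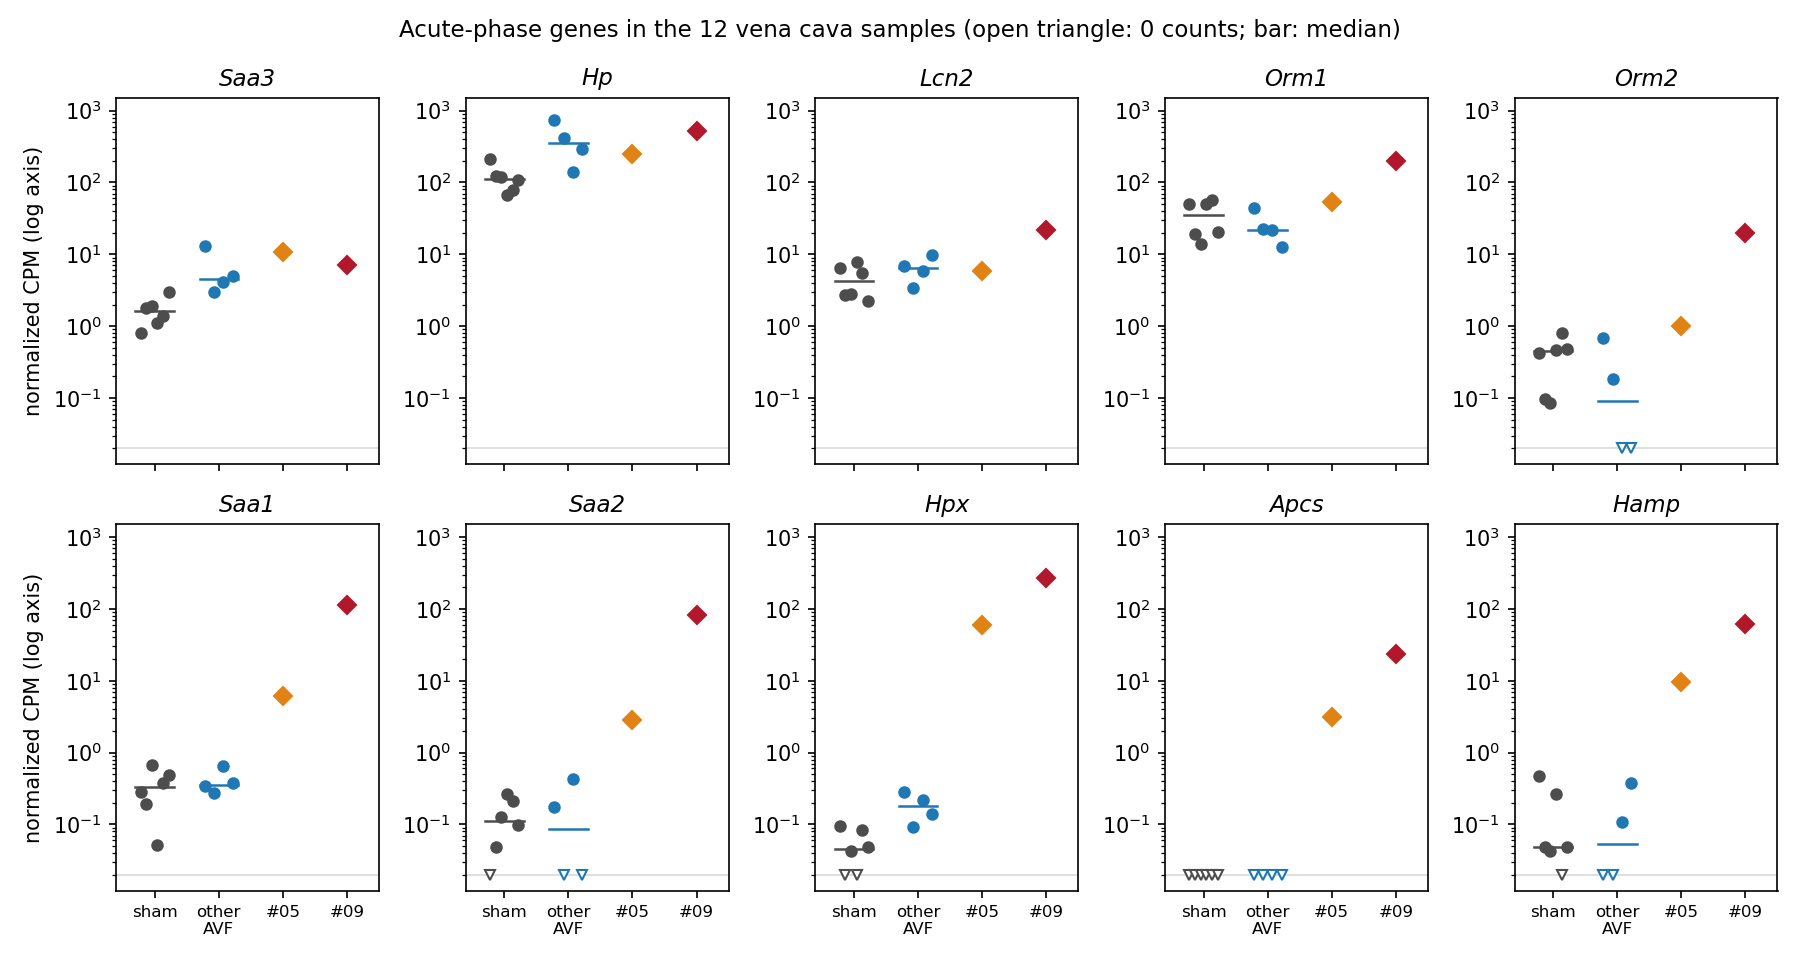
Normalized CPM (log axis) of the 10 genes in each of the 12 samples, with 6 sham samples, 4 other AVF samples and samples #05 and #09 apart; bars are medians and open triangles are samples with 0 counts, drawn on the grey line. In Saa3 and Hp the other AVF samples lie mostly above sham. In Saa1, Saa2, Orm2, Hpx, Apcs and Hamp only #05 and #09 lie above 1 normalized CPM, with #05 at 1.02 in Orm2.

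Saa3 was higher in the AVF group as a whole. Its level was 12.9 normalized CPM in #04, 10.8 in #05, 2.95 in #06, 4.1 in #07, 7.13 in #09 and 4.93 in #11, and in sham it was 0.805 at the lowest, 1.61 at the median and 3.01 at the highest. Of the AVF samples, 5 of 6 lay above every sham sample, and only #06 fell just within the sham range. The mean was 7.13 ± 3.95 (SD, n = 6) in AVF and 1.67 ± 0.776 (SD, n = 6) in sham. The log2 fold change was 2.09 (SE 0.41, adjusted p = 0.00642, edgeR), and without #05 and #09 it was 1.90 (SE 0.44, adjusted p = 0.0257, edgeR). Samples #05 and #09 held 34% of the summed level of Saa3, where the median over all genes tested was 16.5%. Among the Saa genes Saa3 took 79.2% to 93% of the summed normalized CPM in the other AVF samples and 70.2% to 86.4% in sham, but 28.7% in #05 and 2.39% in #09.

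Hp, the hemoglobin-binding protein, had the highest median level of the 10 genes in sham per length of transcript, 84 normalized CPM per kilobase. It reached 740 normalized CPM in #04, 249 in #05, 417 in #06, 142 in #07, 523 in #09 and 290 in #11, and sham samples had 67.2 at the lowest, 113 at the median and 212 at the highest. The AVF samples other than #07 lay above every sham sample, and the highest was #04, not #05 or #09. The mean was 393 ± 215 (SD, n = 6) in AVF and 118 ± 50.9 (SD, n = 6) in sham, a log2 fold change of 1.74 (SE 0.38, adjusted p = 0.0125, edgeR). It was 1.76 without #05 and #09 (SE 0.41, adjusted p = 0.0256, edgeR). Cd163, the macrophage receptor for haptoglobin bound to hemoglobin, had 129 ± 48.6 normalized CPM (SD, n = 6) in AVF and 83.6 ± 16.8 (SD, n = 6) in sham and was not a DEG (log2 fold change 0.63, adjusted p = 0.0814, edgeR).

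Saa3 and Hp varied together over the 10 samples other than #05 and #09, with a Pearson correlation of 0.74 between log2 values, where both groups and all library sizes enter, and #04 had the highest level of both. The genes most like Saa3 over these samples, of 15610 compared, were C5ar1 (0.957), Itih4 (0.943), Tars1 (0.943), Itm2a (0.938) and Serpinb9b (0.924). Those most like Hp were Tlr9 (0.933), Mlkl (0.931), Cdc42 (0.929), Alg8 (0.929) and Zfp185 (0.928). These are correlations of log2(normalized CPM + 1) and carry no test. Markers of other cells also differed between the groups: the summed level of 10 macrophage markers was 676 to 1067 normalized CPM in sham and 1243 to 2041 in the other AVF samples, with 1355 in #05 and 1272 in #09, and the median of all 10 was higher in AVF. The sum of 7 fibroblast markers was 8461 to 16793 in sham, 20583 to 29040 in the other AVF samples, 23973 in #05 and 17345 in #09, most of it from Col1a1 and Col1a2. These genes, Lum and Pi16 lay above sham in the other AVF samples. Pdgfra (143 to 269 in sham, 186 to 244 in the other AVF samples), Dpt (515 to 677 and 612 to 732) and Dcn (1992 to 3897 and 2722 to 3215) overlapped. The sum of 8 white adipocyte markers was 3406 to 7917 in sham, 3598 to 7201 in the other AVF samples, 4754 in #05 and 8127 in #09. The part of these cells in the levels of Saa3 and Hp was not tested.

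Lcn2, a siderophore-binding protein also found in neutrophil granules, did not pass the test. Its level was 6.87 normalized CPM in #04, 5.8 in #05, 3.44 in #06, 5.83 in #07, 22.1 in #09 and 9.72 in #11, and in sham 2.23 at the lowest, 4.2 at the median and 7.84 at the highest. Samples #09 and #11 lay above every sham sample and the others within the sham range. The log2 fold change was 0.96 (SE 0.45, adjusted p = 0.164, edgeR) and 0.49 without #05 and #09 (adjusted p = 0.452, edgeR). Of 12 neutrophil markers 9 were above 3 counts in any sample, and their summed level was 16.4 to 133 normalized CPM in sham, 28.6 to 51.9 in the other AVF samples, 53 in #05 and 39.8 in #09, with Ly6g at 0 in 10 of 12 samples. Slc22a17, a receptor for lipocalin 2, had 8.82 ± 1.48 normalized CPM (SD, n = 6) in sham and 5.4 ± 1.12 (SD, n = 6) in AVF with no overlap (adjusted p = 0.0178, edgeR). Mmp9, whose protein binds lipocalin 2, had 12.4 ± 1.84 and 6.23 ± 3.06 (SD, n = 6 each, adjusted p = 0.0226, edgeR, and 0.0765 without #05 and #09). Neither was a DEG, since both missed the 2-fold limit, and nor was Lrp2, another lipocalin 2 receptor, whose estimate was 1.71 on the log2 scale (adjusted p = 0.318, edgeR). The genes most like Lcn2 over the 10 samples were Ptpn11 (0.961), Ube2g2 (0.929), Zbtb16 (0.922), Fbxo33 (0.917) and Ltc4s (0.906).

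Orm1, a plasma carrier protein that adipocytes also make, came next to Hp in sham per length of transcript, with a median of 42.8 normalized CPM per kilobase. Below it were Lcn2 (4.59), Saa3 (1.6), Orm2 (0.578), Saa1 (0.44), Saa2 (0.172), Hamp (0.0703) and Hpx (0.0302), with Apcs at 0. The sham ranges of neighbours in this order overlapped, except those of Orm1 and Lcn2. Orm1 had 44.1 normalized CPM in #04, 53 in #05, 22.3 in #06, 21.7 in #07, 202 in #09 and 12.8 in #11, and sham samples had 14.1 at the lowest, 35.3 at the median and 56.9 at the highest. Only #09 lay above the sham range. The log2 fold change was 0.75 with all samples (SE 0.63, adjusted p = 0.443, edgeR) and -0.49 without #05 and #09 (adjusted p = 0.523, edgeR), so its direction rested on these samples, and on #09 in particular (-0.20 without #09 alone).

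In sham, Orm1 split into samples with 50.4 (#16), 50.9 (#19) and 56.9 (#22) normalized CPM and samples with 18.9 (#17), 14.1 (#18) and 20.2 (#23). The former also had the higher sums of 8 white adipocyte markers, 6376, 7917 and 7624 against 4086, 3406 and 4993, and of 6 brown adipocyte markers, 899, 1755 and 1142 against 104, 200 and 538. Fabp4 was the largest part of the white adipocyte sum, with 2056 to 5813 normalized CPM in sham. The genes most like Orm1 over the 10 samples were Mmd (0.983), Ptp4a1 (0.971), Echdc1 (0.959), Fabp4 (0.958), the adipocyte fatty acid-binding protein, and Ppp1r15b (0.957). Fabp4 here is the same gene as in the sum above, so it is not a separate sign of adipocytes. The summed level of the neutrophil markers also differed, with 133, 114 and 51.5 normalized CPM in #16, #19 and #22 against 28.8, 46.1 and 16.4 in #17, #18 and #23, as did Lcn2, with 6.48, 7.84 and 5.55 against 2.72, 2.84 and 2.23. The part of RNA of adipocytes or other cells in the level of Orm1 was not tested.

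Orm2 stood at 19.5 normalized CPM in #09 and 1.02 in #05, 0 to 0.687 in the other AVF samples and 0.0847 to 0.806 in sham. It was not a DEG (log2 fold change 3.16, SE 1.33, adjusted p = 0.124, edgeR). Within the Orm family, Orm2 took 8.65% of the summed normalized CPM in #09, 1.84% in #05, 0% to 1.48% in the other AVF samples and 0.458% to 2.14% in sham. Over the 10 other samples its log2 levels followed those of Orm1 with a correlation of 0.83, and reads of the copies are not separable by the values alone. The genes most like Orm2 were Ivd (0.973), Cd1d1 (0.973), Gys1 (0.97), Acadsb (0.968) and Nadk (0.968). Orm2 had only 0 to 19 counts in each of these 10 samples, so all its correlations rest on values near the floor.

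Saa1 and Saa2 were found at high levels in #09 and at lower levels in #05. Saa1 had 114 normalized CPM (2074 counts) in #09, 6.04 (124 counts) in #05, 0.272 to 0.647 in the other AVF samples and 0.0523 to 0.678 in sham. Saa2 had 82.3 (1501 counts) in #09, 2.87 (59 counts) in #05, 0 to 0.432 in the other AVF samples and 0 to 0.261 in sham. Outside #05 and #09, the other 4 AVF samples lay within the range of sham for Saa1, and for Saa2 only #07, with 4 counts, lay above it. Both were DEG with all samples (Saa1 log2 fold change 5.83, SE 1.64, adjusted p = 0.0347; Saa2 6.78, SE 1.95, adjusted p = 0.0375, edgeR). Leaving out any 1 sham sample ended both calls, as did a robust fit, and neither gene passed the filter without #05 or without #09. Tested without #05 and #09 and without a filter, the log2 fold changes were 0.20 for Saa1 (adjusted p = 0.885) and 0.05 for Saa2 (adjusted p = 0.991, edgeR).

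Hpx, the heme-binding protein, stood at 266 normalized CPM (4854 counts) in #09 and 60.3 (1238 counts) in #05. It had 18 counts over the other 10 samples, 0 to 2 in each sham sample, all under the least taken as detected, and at most 5 counts, in #04. The log2 fold change of 10.02 (SE 2.42, adjusted p = 0.0196, edgeR) thus rests on 6 counts in the whole sham group and depends on the prior count of the fit. Without #05 and #09, and without a filter, it was 1.85 (adjusted p = 0.318, edgeR). Hmox1, the enzyme that breaks heme down, had 26.5 ± 7.89 normalized CPM (SD, n = 6) in AVF and 13.9 ± 1.12 (SD, n = 6) in sham, and its groups did not overlap. Its log2 fold change, 0.93 (adjusted p = 0.00371, edgeR), and that of Lrp1, the receptor for hemopexin bound to heme, 0.61 (adjusted p = 0.0224, edgeR), missed the 2-fold limit. They were 0.98 (adjusted p = 0.0135) and 0.73 (adjusted p = 0.0169, edgeR) without #05 and #09.

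Apcs, the serum amyloid P gene, was detected in #09 (23.4 normalized CPM, 427 counts) and #05 (3.17, 65 counts) and had 0 counts in the other 10 samples, which allows up to 0.127 to 0.324 normalized CPM in a library. No fold change is given because sham was at 0 throughout, and it was not a DEG (adjusted p = 0.083, edgeR). Hamp, the hormone that closes the iron exporter ferroportin, had 61.1 normalized CPM (1114 counts) in #09, 9.59 (197 counts) in #05, 0 to 0.375 in the other AVF samples and 0 to 0.473 in sham, where the highest was #16 with 10 counts. It was a DEG with all samples (log2 fold change 6.33, SE 1.84, adjusted p = 0.0391, edgeR), and lost this call when any 1 sham sample was left out. Without #05 and #09 and without a filter its log2 fold change was -0.20 (adjusted p = 0.946, edgeR). Slc40a1, the gene of ferroportin, had 58.2 normalized CPM in #09, 20.9 in #05, 17.6 to 23.2 in the other AVF samples and 13.5 to 42.6 in sham and was not a DEG (log2 fold change 0.16, adjusted p = 0.78, edgeR).

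**Figure D2:**
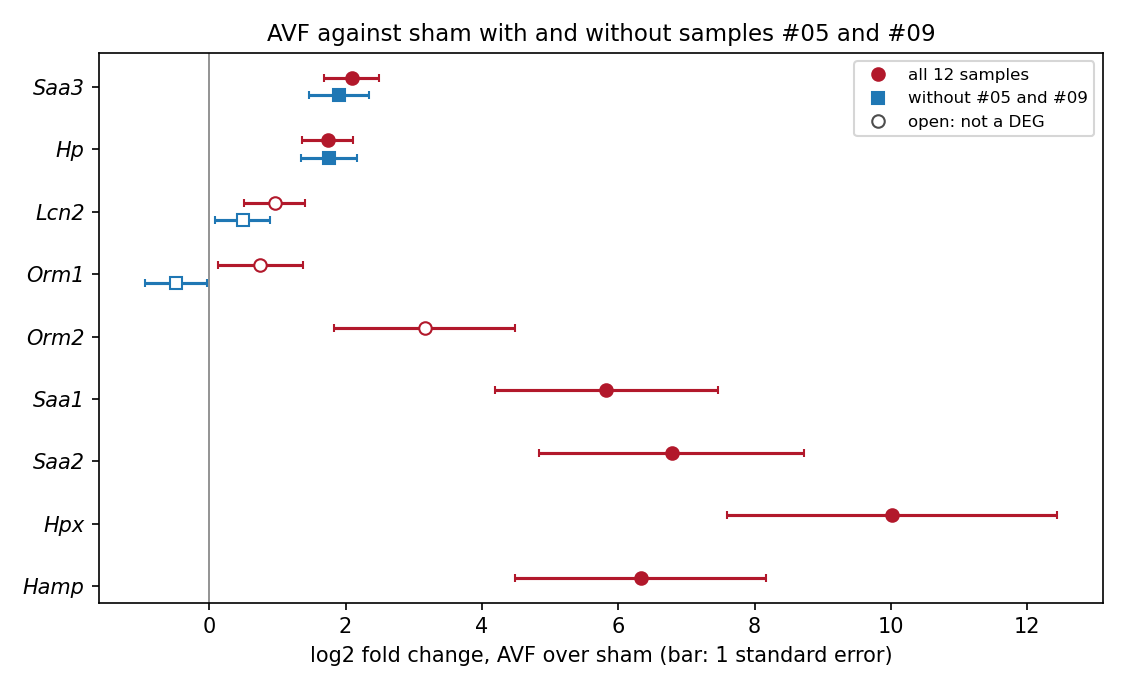
Log2 fold change of AVF over sham with 1 standard error for 9 of the genes, with all 12 samples (circles) and without #05 and #09 (squares, for the 4 genes that then pass the filter); filled symbols are DEG. Saa3 and Hp keep 1.90 and 1.76 without #05 and #09, Orm1 changes from 0.75 to -0.49, and Apcs is left out because sham had 0 counts.

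The genes thus fell along a range in how much of their level #05 and #09 held. The share of the summed normalized CPM of 12 samples was 25.2% for Hp, 34% for Saa3, 34.3% for Lcn2, 44.9% for Orm1, 86.4% for Orm2, 97% for Saa1, 98.1% for Hamp, 98.4% for Saa2, 99.7% for Hpx and 100% for Apcs. For Alb it was 99.8%. Of all genes tested, 235 (1.48%) had over 90% of their level in these samples, and 5 of the 10 genes did. Since #05 and #09 were set apart by expression, these shares are a description.

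**Figure D3:**
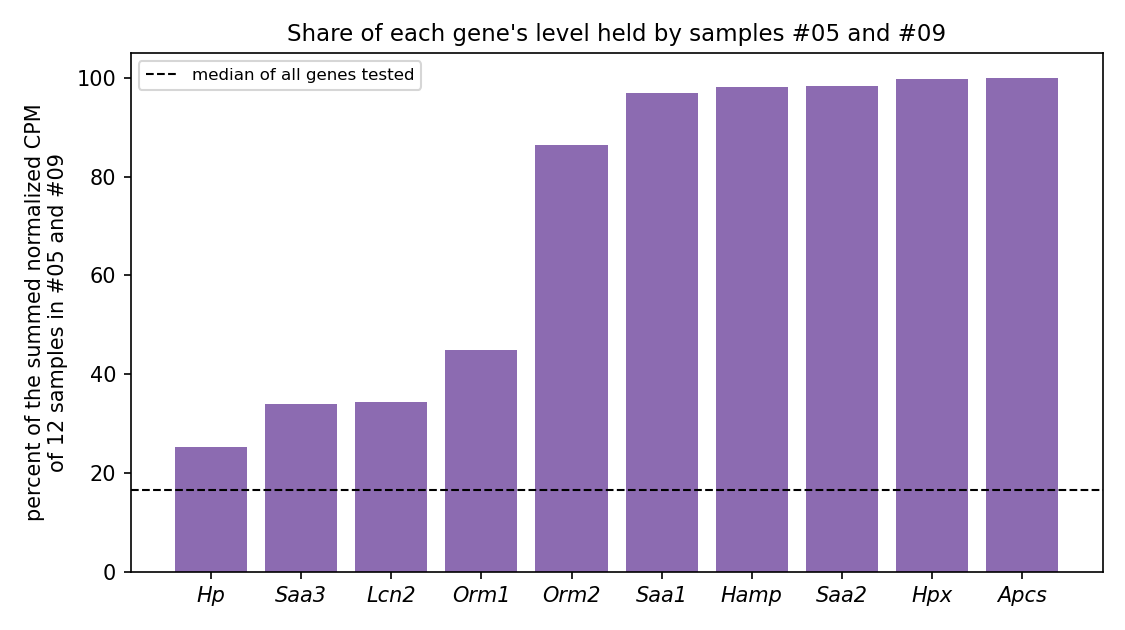
Percent of the summed normalized CPM of the 12 samples that samples #05 and #09 held, for each of the 10 genes (bars), with the median of all genes tested, 16.5%, as a dashed line. The bars run from 25.2% for Hp to 100% for Apcs.

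Samples #05 and #09 differed from each other in these genes. Alb was 3.02 times as high in #09 as in #05, and the 17 hepatocyte markers concentrated in these samples had ratios of 0.982 to 4.61 with a median of 2.46. Saa2 was 28.7 times as high, Orm2 19 times, Saa1 18.8 times, Apcs 7.4 times and Hamp 6.37 times. Hpx, with a ratio of 4.42, Lcn2, with 3.81, Orm1, with 3.8, and Hp, with 2.1, were within the range of the hepatocyte markers, and Saa3 was lower in #09 (0.66). Among the 235 genes with over 90% of their level in #05 and #09, no other gene had a higher ratio than Saa2, and 2 of the other 234 had a higher one than Saa1.

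Relative to Alb, Saa1 had 0.326 counts per 100 counts of Alb in #05 (95% exact binomial interval 0.271 to 0.389) and 2.03 in #09 (1.95 to 2.12). Saa2 had 0.155 (0.118 to 0.2) and 1.47 (1.4 to 1.55), and Orm2 had 0.0552 (0.0342 to 0.0844) and 0.348 (0.313 to 0.386). The step was smaller for Hamp, with 0.518 (0.448 to 0.596) and 1.09 (1.03 to 1.16), for Apcs, with 0.171 (0.132 to 0.218) and 0.419 (0.38 to 0.46), for Hpx, with 3.25 (3.07 to 3.44) and 4.76 (4.62 to 4.9), and for Orm1, with 2.86 (2.69 to 3.04) and 3.6 (3.48 to 3.72). In these 7 genes #09 was higher and the intervals of #05 and #09 did not overlap. In Lcn2, with 0.313 (0.259 to 0.374) and 0.395 (0.357 to 0.436), they did. The share was lower in #09 for Hp, with 13.5 (13.1 to 13.9) and 9.36 (9.16 to 9.55), and for Saa3, with 0.584 (0.509 to 0.666) and 0.127 (0.106 to 0.151), and these intervals did not overlap either. However, the levels of Hp and Saa3 in both samples lay within those of the other AVF samples, where Alb was at most 2.67 normalized CPM. In #05 the levels of Orm1 and Lcn2 lay within the sham range. Shares of these 4 genes therefore also move with the level of Alb alone and are not levels per hepatocyte. The intervals cover counting error only and compare 2 libraries, not conditions, and sex and mouse cannot be told apart here, since #05 was male and #09 female. Saa4, the constitutive member of the family, had a ratio of 5.3 of #09 to #05: it made up 47.7% of the summed normalized CPM of the Saa genes in #05 and 31.9% in #09, whereas Saa1 took 16% and 38.1%.

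**Figure D4:**
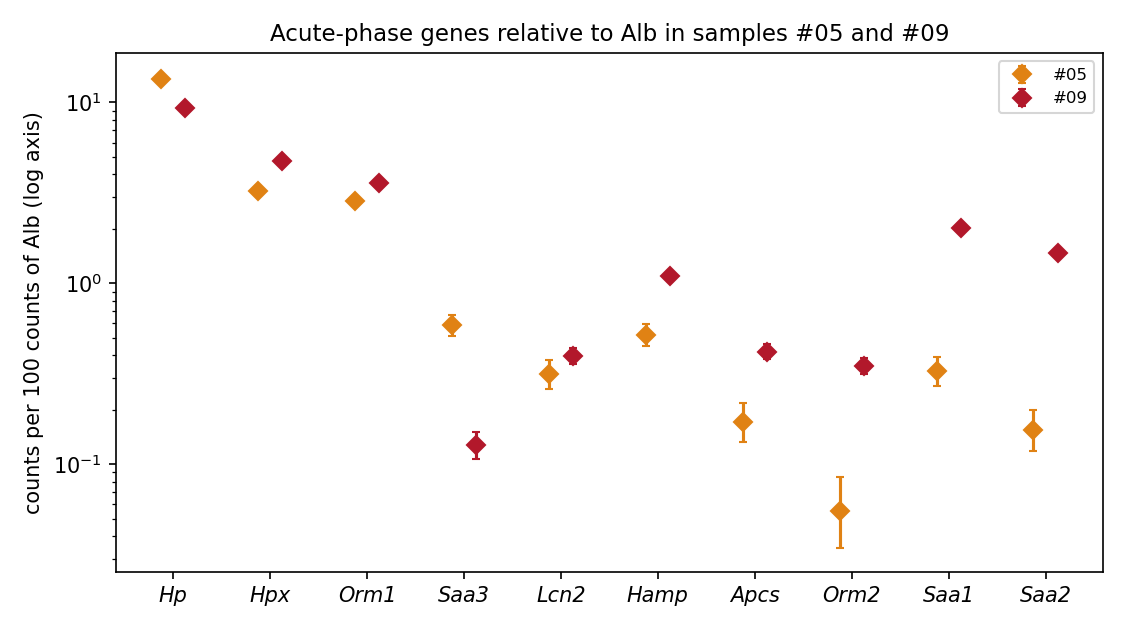
Counts of the 10 acute-phase genes per 100 counts of Alb (log axis) in sample #05 and sample #09, with exact 95% intervals for counting error; some are narrower than the symbols. Hp and Saa3 lie lower in #09 and the other 8 higher, with Saa2 at 0.155 and 1.47 and overlapping intervals in Lcn2.

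Other genes of the acute-phase response were counted from lists. Of 24 other acute-phase proteins tested, 17 were DEG and higher in AVF and 0 were lower (3.37% and 1.4% of all genes tested), with a median log2 fold change of 2.84 (-0.01 over all genes tested), and 9 of the 24 had over 90% of their level in #05 and #09. Only 16 of the 24 passed the filter without these samples, so that the others had to differ, and the count of 17 supports nothing. Those with the lowest adjusted p values were Ptx3 (log2 fold change 2.17, adjusted p = 0.00134), Itih4 (2.67, adjusted p = 0.0125), Fgb (11.64, adjusted p = 0.0193) and Serpina1a (9.16, adjusted p = 0.0202, all edgeR). Fgb, which encodes fibrinogen beta, had at most 0.0947 normalized CPM in a sham sample. Serpina1a, an alpha-1-antitrypsin gene whose near-identical copies make its level uncertain, had at most 0.291 in sham, 122 in #05 and 273 in #09. Only Ptx3 and Itih4, 2 of 16 tested, were DEG without #05 and #09, where 3.03% of all genes tested were. Ptx3, a pentraxin made locally by vessel wall and myeloid cells, had 3.62 to 9.53 normalized CPM in AVF and 0.593 to 2.16 in sham with no overlap, and its AVF values were lowest in #09 and next lowest in #06 and #05. Itih4, an inter-alpha-trypsin inhibitor chain, had 320 in #09, 134 in #04, 101 in #05, 39 in #06, 32.2 in #11 and 26.2 in #07, and 10.5 to 27.3 in sham.

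Negative acute-phase proteins, which hepatocytes make less of in inflammation, were counted in the same way: 6 of 9 tested were DEG and higher in AVF, and 0 were lower (3.37% and 1.4% of all genes tested). Their median log2 fold change was 7.40, or 6.80 with genes at 0 in sham taken at the 3-count floor, and 6 of 9 had over 90% of their level in #05 and #09. Here too only 5 of the 9 passed the filter without these samples. Alb (log2 fold change 10.38, adjusted p = 0.0209, edgeR), Apoa1 (9.08, adjusted p = 0.0182, edgeR) and Ahsg (6.73, adjusted p = 0.0222, edgeR) were among them. Without #05 and #09 only Igf1 of 5 tested remained a DEG (log2 fold change 1.86, adjusted p = 0.000696, edgeR), where 3.03% of all genes tested were. Igf1, a growth factor that many tissues make, had 529 to 855 normalized CPM in AVF and 122 to 287 in sham, with #05 and #09 the lowest of the AVF samples.

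Of 28 cytokines, receptors and transcription factors of the acute-phase response tested, 2 were DEG, where 4.77% of all genes were. Both were higher in AVF: Hnf4a, a hepatocyte factor with 101 normalized CPM in #09, 27.7 in #05 and 1 count in the other 10 samples together, and Bmp2, a ligand that induces Hamp in liver. Hnf4a passed the filter only through #05 and #09 and thus had to differ. Bmp2 had 46.8 normalized CPM in #09, 23.9 in #05 and 9.6 to 17.1 in the other AVF samples, all above the 5.33 to 9.25 of sham (log2 fold change 1.62, adjusted p = 0.00983, edgeR). Without #05 and #09, 2 of 26 were DEG, Bmp2 (1.01) and Smad7 (1.08), an inhibitor of the same pathway, where 3.03% of all genes tested were. Both were barely over the log2 fold change limit of 1. Of 23 partners and receptors tested, 0 were DEG with or without #05 and #09 by edgeR's quasi-likelihood test, and with all samples 0 by its exact test and 0 by DESeq2. An unadjusted p value under 0.05 was found in 14 of them with all samples, where 5023 of all 15912 genes had one, and in 13 without #05 and #09, where 4185 of 15531 had one. Fpr2, a receptor for serum amyloid A, had 0.768 ± 0.288 normalized CPM (SD, n = 6) in AVF and 1.04 ± 0.285 (SD, n = 6) in sham (adjusted p = 0.395, edgeR). None of the partners and receptors had over 90% of its level in #05 and #09, and the highest share was 34.9%.

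Between the sexes, 0 of 10 genes were DEG in AVF (female against male, at least 1.5-fold, edgeR), where 0.0316% of 22123 genes were, and 1 of the 10 had an unadjusted p value under 0.05. This was Lcn2, higher in females by 1.22 on the log2 scale (unadjusted p = 0.0433, adjusted p = 0.997, edgeR). The estimate for Lcn2 leaned on #09: it was 0.53 without #09 and 0.60 without #05 and #09. In sham 0 of the 9 genes that could be tested were DEG, where 0.0818% of 21992 genes were, and 1 had an unadjusted p value under 0.05. This was Hp, which was lower in female sham mice (log2 difference -0.84, unadjusted p = 0.0156, adjusted p = 0.464, edgeR). Female sham mice had 67.2, 79.2 and 108 normalized CPM of Hp, and males had 118, 124 and 212. For the sexes, the share of all genes with an unadjusted p value under 0.05 is not given. The values of Lcn2 in AVF and of Hp in sham are thus a description. The interaction of operation and sex was significant in 0 of 10 genes and in 0% of 22163 genes, and 0 of the 10 had an unadjusted p value under 0.05. The exact test of edgeR and DESeq2 gave 0 of these genes in both comparisons of the sexes, and DESeq2 gave 0 in the interaction. With 3 mice in each arm and #05 male and #09 female, differences of the hepatocyte-made genes between the sexes rested on 1 library each.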

How the data were processed

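Poly(A) RNA libraries of 12 IVC samples were analysed. Per the labels and the paper, the authors trimmed reads (Trimmomatic 0.39), aligned them to GRCm39 (STAR 2.7.7a, Ensembl annotation) and deposited the expected counts of RSEM 1.3.3 without normalization. In each library 5.72% to 7.75% of the values were not whole. Counts were rounded and scaled with TMM in edgeR 4.0.16 (R 4.3.3). The quasi-likelihood test of edgeR compared AVF with sham (6 against 6), the sexes within each operation (3 against 3) and their interaction, with p values adjusted by Benjamini-Hochberg over all genes tested. The thresholds of DEG were 0.05 for the adjusted p value and 1 for the log2 fold change in either direction (0.585 for the sexes). Genes needed more than 1 CPM in at least 2 samples, or more than 12 counts in all for the comparisons with sex. Operation, sex and number came from the sample labels, and OUT and nAVF from the paper.

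Names came from GENCODE M39, which named 54749 of 55414 identifiers. The 10 genes and the lists were chosen with earlier results of these data known. Named were the 10 genes, up to 4 DEG of each list by lowest adjusted p value, genes with a known direct role for a member, and the 5 genes most correlated with a member; Smad7, Lrp2 and Saa4, and the marker genes given with values, were named after their values were seen. Alternatives were DESeq2 1.42.0, the exact test of edgeR, other scalings and filters, unrounded counts, a robust fit, sex as a covariate, a block, and samples left out. On simulated counts of the AVF and sham comparison, 189 of 200 genes changed 4-fold were recovered. Fewer of 200 were recovered for the sexes: 141 in AVF, 150 in sham and 123 for the interaction. Ultrasound, microarray data and raw reads were not analysed here. The genes most correlated with Saa1 are not reported here.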

Additional observations from a re-analysis of the deposited data

Results flagged for a closer look

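In 8 of the 18 groups of 6 samples searched (AVF or sham, by gene), the gap of sample #09 to the other AVF samples, as a share of the range, was above Dixon's limit of 0.625. Chance flags about 1 in 20 groups, but this rate is not read against the 8, since #09 had been set apart by the same expression and these are related genes of 1 library: the values are a description. The levels of #09, with the next highest AVF sample, were 114 and 6.04 normalized CPM for Saa1, 82.3 and 2.87 for Saa2, 19.5 and 1.02 for Orm2, 23.4 and 3.17 for Apcs, 61.1 and 9.59 for Hamp, and 266 and 60.3 for Hpx. In these 6 genes the next highest was #05. Orm1 had 202 in #09 and 53 in #05, and Lcn2 had 22.1 in #09 and 9.72 in #11. The same library had the highest Alb level of the series, and the part of liver RNA in these values was not tested. No sham sample, and neither Saa3 nor Hp, met the limit.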

How the results depend on the processing

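Saa3 (log2 fold change 1.84 to 2.35) and Hp (1.46 to 1.99) were DEG in AVF against sham in every alternative run, each sample left out included. The 6 DEG of the 10 genes became 3 with a robust fit and 2 without #05 and #09, also with no filter (an alternative added after seeing the data), and 2 to 6 with single samples left out: 2 without #05 or without #09, and 3 without any 1 sham sample, since Saa1, Saa2 and Hamp missed the threshold. All-gene DEG (759) became 2190 without a fold change limit, 471 without #05 and #09 (477 with no filter) and 470 to 1023 with 1 sample left out, lowest without sham #22 and 503 without #05. DEG of the related lists (25) became 40, 5 and 7 in these fits, and 9 to 27 with 1 sample left out (9 without #09, 12 without #05, 13 without #22, 16 without #16). The log2 fold change turned for Orm1 (-0.49 without #05 and #09, -0.48 with no filter, -0.20 to 0.96 with 1 sample left out, lowest without #09) and, with no filter, for Orm2 (-0.78) and Hamp (-0.20), and for Lcn2 between the sexes in sham (-0.041 to 0.92 with 1 sample left out, lowest without #19). The exact test of edgeR gave 8 DEG (also Orm2 and Apcs). DESeq2 gave 5 and no adjusted p value for Saa1, Saa2 and Orm2, and sex as a covariate left 4. The sample labels number mice within sex and operation, and the deviations of same-numbered mice correlated weakly (mean correlation 0.1, -0.15 to 0.26 over 6 pairs). Of 12 samples, 5 were closest to their own number among the 6 samples of the other operation. A pairing by number is thus neither shown nor excluded. With this number as a block, 4 of the 10 genes were DEG: Saa1 (2.87, adjusted p = 0.224), Saa2 (4.70, adjusted p = 0.105) and Hamp (3.99, adjusted p = 0.23) were not, and Apcs was (adjusted p = 0.0193, edgeR), with 668 genes in all and 17 in the related lists. The block left the counts of the sex comparisons and the interaction at 0. The causes of these shifts were not tested. In all, 352 of 414 alternative values kept their direction and side of the threshold or, for counts of genes, stayed within 1.5 times the main count. Depth limited the 6 genes near 0 counts outside #05 and #09.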

Other observations

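Hamp2, the copy of Hamp, had 20.7 normalized CPM (378 counts) in #09 and 0.39 (8 counts) in #05, a ratio of 53.2, with 5 counts in the other 10 samples together and 0 in sham. Its share of the counts of Alb thus moved further between the samples than that of any of the 10 genes, from 0.021 to 0.371 per 100 counts. Hamp2 did not pass the filter of the comparison of AVF with sham, so it was not tested there, and it was named after its values were seen.

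Il6, the main inducer of hepatic acute-phase genes, was below the filter as well. It had 1.27 normalized CPM in #05, 0.439 in #09, 0.324 to 0.916 in the other AVF samples and 0.0473 to 0.582 in sham. Sample #09, with the highest Saa1 and Saa2, had 8 counts of Il6, and #07 had 3. The rest of the AVF samples had 16 to 26 counts. The values of #09 and #07 thus lie near the 3 counts taken as the least detected. Plasma IL-6 was not measured here, and a link of Il6 with the levels of Saa1 and Saa2 was not tested. Orm3, the third orosomucoid, was not a DEG with all samples (log2 fold change -0.56, adjusted p = 0.446, edgeR) or without #05 and #09 (-1.36, adjusted p = 0.0672, edgeR), and had 0.54 to 1.49 normalized CPM in the other AVF samples and 1.23 to 4.15 in sham. Both genes were named after their values were seen.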
